A study of Saccharomyces cerevisiae with 24 samples.

Results

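Galactose uptake and its conversion to glucose-6-phosphate were followed through 6 deletion strains of a pooled yeast screen. The strains lack GAL2, GAL1, GAL7, GAL10, PGM2 or PGM1. They were taken by the systematic name of the deleted gene on the barcode array, which left 6 of 5526 strain names and 20 of 14129 barcode probes.

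In budding yeast, galactose enters the cell through the permease Gal2 and is used by the Leloir pathway. The kinase Gal1 makes galactose-1-phosphate, the transferase Gal7 exchanges it with UDP-glucose to give glucose-1-phosphate and UDP-galactose, and the epimerase Gal10 turns UDP-galactose back into UDP-glucose. Phosphoglucomutase, mostly Pgm2 with a minor share from Pgm1, then makes glucose-6-phosphate for glycolysis. The GAL genes are silent on glucose and strongly induced on galactose by Gal4, which Gal80 holds inactive until Gal3 releases it. Loss of galactokinase is a textbook cause of failure to grow on galactose, and loss of Gal7 or Gal10 is known to make galactose toxic through galactose-1-phosphate.

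In the RefSeq annotation of assembly R64, GAL7 (YBR018C, 274427 to 275527), GAL10 (YBR019C, 276253 to 278352) and GAL1 (YBR020W, 279021 to 280607) lie side by side on chromosome II. PGM1 (YKL127W) lies on chromosome XI at 203541 to 205253, GAL2 (YLR081W) on chromosome XII at 290212 to 291936 and PGM2 (YMR105C) on chromosome XIII at 475897 to 477606. GAL1 and GAL10 are transcribed in opposite directions from a shared promoter, and this promoter also drives MDM33 on the plasmid of the screen.

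The screen asked which deletions let cells grow when MDM33, which encodes a protein of the mitochondrial inner membrane, is overexpressed, since high levels of it arrest growth. The 4 groups were the MDM33 plasmid on 2% galactose for 4 days, the empty vector on 2% galactose for 4 days, the MDM33 plasmid on 2% glucose for 2 days and the empty vector on 2% glucose for 2 days. All groups came from the same haploid MATα collection of nonessential deletions, transformed as a pool and first selected on glucose plates. Each group was measured in 2 independent experiments. Sugar and time on the plate changed together and cannot be told apart, and in experiment 1 the dye also changed with the sugar, with Cy3 for galactose and Cy5 for glucose.

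Each strain carries an uptag and a downtag, short barcodes that were amplified from the DNA of the pool and labelled separately, with 1 tag in each dye channel. The deposited intensities carry the authors' scaling to 1 total, and the 24 channels sum to between 147379493 and 147666701 units. A value is therefore a share of the pool, so that growth of other strains lowers it as well as loss of the strain itself. Probes of the unlabelled tag show background only, and their 99th percentile served as the detection limit of a channel. This limit ranged over 786 to 3339 units on galactose with MDM33 and over 176 to 837 units in the other 3 groups. For 1 value per strain and experiment, the brightest probe of each tag was taken, dyes were averaged, and then both tags. The barcodes report how much of a strain is present and do not show whether its gene is deleted, so the identity of the strains rests on the annotation.

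The groups differed in how well their experiments repeated. Over 4074 tested strains, those with a mean value above 854 units, experiments 1 and 2 lay a median of 1.80 log2 units apart on galactose with MDM33. This distance was 0.77 for the empty vector on galactose, 0.64 for the MDM33 plasmid on glucose and 0.65 for the empty vector on glucose. All 6 strains passed this filter. Δgal10 passed it only through its values on galactose with MDM33, since its other values averaged 569.7 units.

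Detection shares of all strains are given over the 5526 names on the array. These are more than the pool held, so some could not be detected. On galactose with the MDM33 plasmid, only Δpgm1 of the 6 strains was detected in both experiments, against 41.0% of all 5526 names. In experiment 2 this rested on 1 dye of its uptag. Cy5 gave 7197 units, 4.30 times the limit, while Cy3 gave 629 units, 0.26 of the limit. With the empty vector on galactose, 4 strains (Δgal2, Δgal1, Δpgm2 and Δpgm1) were detected in both, against 66.2% of all strains. On glucose, 6 strains were detected in both experiments with the MDM33 plasmid (68.3% of all) and 5 with the empty vector (66.8% of all), where Δgal10 was missed in experiment 1. On galactose, Δgal1 with the MDM33 plasmid (36.8% of all strains) and Δgal10 with the empty vector (25.5% of all) were found in neither experiment.

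**Figure D1:**
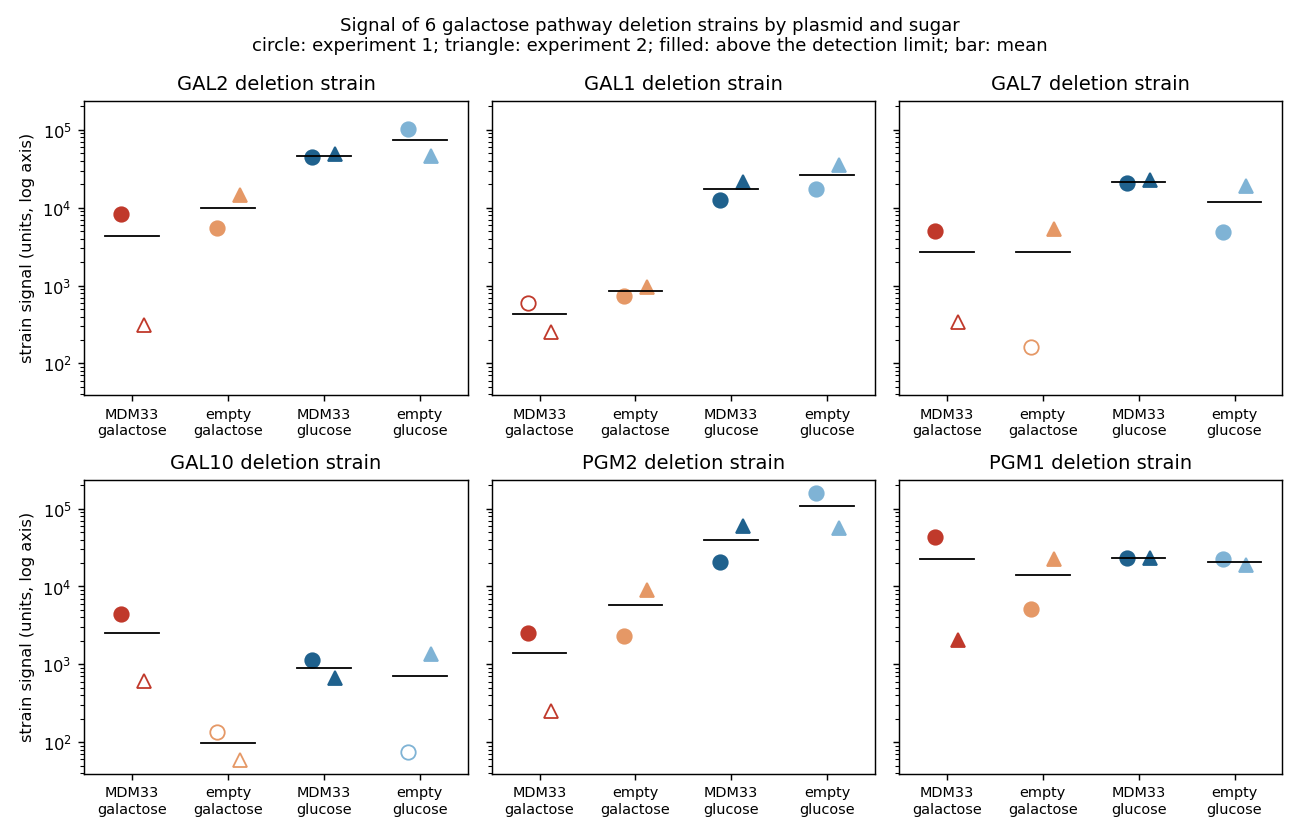
Strain signal in units on a log axis for the 6 deletion strains, by plasmid and sugar. Circles are experiment 1, triangles experiment 2, filled symbols lie above the detection limit and bars are means of 2 experiments. In Δgal2, Δgal1 and Δpgm2 every galactose value lies below every glucose value, while Δpgm1 on galactose spans 2025 to 42733 units around its glucose values.

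The strain without the permease Gal2 was among the brighter of the 6 on glucose. Δgal2 had 8263 and 308 units (experiments 1 and 2) with the MDM33 plasmid on galactose, against 44679.8 and 48822 units on glucose. Its empty vector values were 5485 and 14539.9 units on galactose, against 103285 and 45627 units on glucose. The galactose values were lower than the glucose values with either plasmid and without overlap, and the value of 308 units was below the limit. The whole signal came from the uptag. The downtag of Δgal2 stayed below its limit in all 8 pairs of group and experiment, at most at 0.74 of it.

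Δgal1, the galactokinase strain, was low on galactose in both experiments with either plasmid. It had 603 and 251 units with the MDM33 plasmid on galactose, against 12706 and 21623 units on glucose. Under the empty vector it had 738 and 946 units on galactose, against 17551 and 35437 units on glucose. The 2 experiments thus gave close values with the empty vector, 4.21% and 2.67% of the glucose signal, where the median tested strain stood at 85.4% and 99.5%. With the MDM33 plasmid the shares were 4.74% and 1.16%, against medians of 25.7% and 12.7%, and neither galactose value was above the limit.

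Both tags of Δgal1 were lower on galactose, to different extents. In empty vector cells the downtag had 311 and 1098 units on galactose, against 30544 and 62139.8 units on glucose, which was 1.02% and 1.77%. The uptag was dimmer on glucose, with 4558 and 8734 units, and kept 25.6% and 9.10% of it on galactose, with 1165 and 795 units. This uptag was 2.63 and 2.34 times its limit on galactose.

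The array holds a second pair of original probes under the GAL1 name, and they did not behave alike. The second downtag probe had 0 and 26.8 units with the MDM33 plasmid on galactose, against 18894 and 14083 units on glucose. Under the empty vector it had 5835 and 4982 units on galactose, against 60835 and 33878 units on glucose. Over 12 channels its log2 signal correlated with that of the first downtag probe at r = 0.88. On galactose with the empty vector it was 31.5 and 8.56 times its limit, where the first probe was 1.68 and 1.88 times its limit. The second uptag probe stayed below the limit in all 12 channels, with at most 348 units. With these second probes in place of the first, the difference of Δgal1 between galactose and glucose with the empty vector was -2.84 in place of -4.25 on the log2 scale, and its difference between the plasmids on galactose was -2.56 in place of -0.56. The files do not say why the name has 2 pairs.

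**Figure D2:**
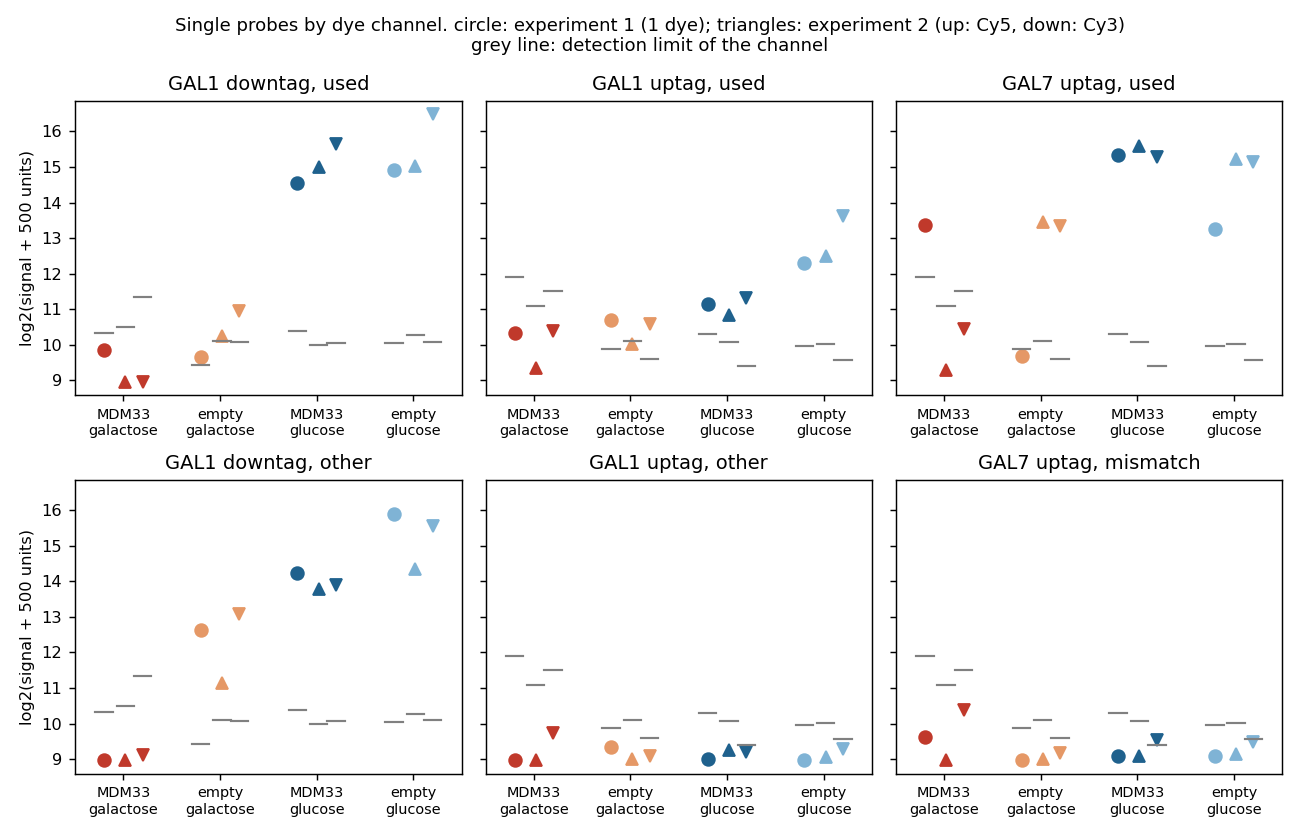
Signal of single probes as log2(signal + 500 units) in each dye channel, by group. Circles are experiment 1 (1 dye), upward and downward triangles are Cy5 and Cy3 of experiment 2, and grey lines are the detection limits. Both GAL1 downtag probes are lower on galactose than on glucose, the second GAL1 uptag probe stays below the limit, and the mismatch probe of the GAL7 uptag passes the limit in 1 of 12 channels.

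The uridylyltransferase strain, Δgal7, gave galactose values that disagreed between experiments. It had 5027 and 338 units with the MDM33 plasmid on galactose, against 20528 and 22575 units on glucose. Its empty vector values were 165 and 5249.9 units on galactose, against 4840.4 and 18863 units on glucose. The experiment with the detectable galactose value was experiment 1 with the MDM33 plasmid and experiment 2 with the empty vector. Within an experiment the galactose signal was 24.5% and 1.5% of the glucose signal with the MDM33 plasmid, and 3.40% and 27.8% with the empty vector. The lower share of each pair rests on a galactose value below the limit. The empty vector groups overlapped across experiments, since 5249.9 units on galactose in experiment 2 exceeded 4840.4 units on glucose in experiment 1. Nearly all of this signal was the uptag, and the downtag passed its limit only on glucose in experiment 2. The mismatch control of that uptag, a probe with a single exchanged letter that should bind it poorly, reached at most 838 units.

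Δgal10, the epimerase strain, was the dimmest of the 6 in both experiments of every group except galactose with MDM33. It had 4491 and 604 units with the MDM33 plasmid on galactose, against 1131 and 669 units on glucose. Under the empty vector it had 135 and 58.5 units on galactose, against 75.1 and 1350.2 units on glucose. Its highest value thus came from galactose and MDM33 in experiment 1, where the uptag stood at 2.68 times a limit of 3339 units. The signal of experiment 2 in the same group was below its limit, and the downtag was below it everywhere. On glucose the uptag was at most 7.33 times its limit, so the range in which a fall could be measured was narrow. With the empty vector both galactose values were below the limit. In experiment 1 glucose was below it as well, so no share was taken. In experiment 2 the share was 4.33% and rests on a galactose value below the limit.

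The 2 phosphoglucomutase strains differed in their galactose values. Δpgm2, without the major enzyme, had 2531 and 252 units with the MDM33 plasmid on galactose, against 20556 and 58966 units on glucose. Its empty vector values were 2319 and 9102 units on galactose, against 158840 and 56004 units on glucose, which is 1.46% and 16.3%. Every galactose value was below every glucose value. The uptag under the empty vector kept 3.41% and 14.4% of its glucose signal and the downtag 0.381% and 17.8%. This was the only strain of the 6 with strong signal from both tags, and 2 mutated versions of its downtag probe followed the original over 12 channels (r between 0.994 and 0.997).

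Δpgm1, without the minor enzyme, was above the limit on galactose in each experiment by its mean over dyes. Its share of glucose disagreed between experiments. It had 42733 and 2025 units with the MDM33 plasmid on galactose, against 23030.5 and 23448 units on glucose. Under the empty vector it had 5152 and 22796 units on galactose, against 22713 and 18911 units on glucose. Galactose was 186% and 8.64% of glucose with the MDM33 plasmid, and 22.7% and 121% with the empty vector. The median tested strain stood at 25.7% and 12.7% with the MDM33 plasmid, and at 85.4% and 99.5% with the empty vector. With either plasmid the higher share was thus above the median and the lower share below it. The groups overlapped with both plasmids, while the 4 glucose values lay within 18911 and 23448 units. The dyes behind these averages could differ. On glucose with the empty vector in experiment 2, the uptag had 14185 units in Cy3 and 61074 units in Cy5. Its downtag was below the limit throughout.

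To set the 2 enzymes side by side, the log2 ratio of Δpgm2 to Δpgm1 was taken in each experiment after 500 units were added to each value. The offset pulls the ratio towards 0 where a value is low, as in experiment 2 on galactose with MDM33, where Δpgm2 was below its limit. With the MDM33 plasmid it was -3.83 and -1.75 on galactose, against -0.16 and 1.31 on glucose. Under the empty vector it was -1.0 and -1.28 on galactose, against 2.78 and 1.54 on glucose. The change was -3.37 with the MDM33 plasmid and -3.30 with the empty vector, and galactose and glucose did not overlap in either case. A two-sided exact permutation test of 2 against 2 values gave p = 0.333 for each, which is the smallest that such a test of 4 values allows.

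**Figure D3:**
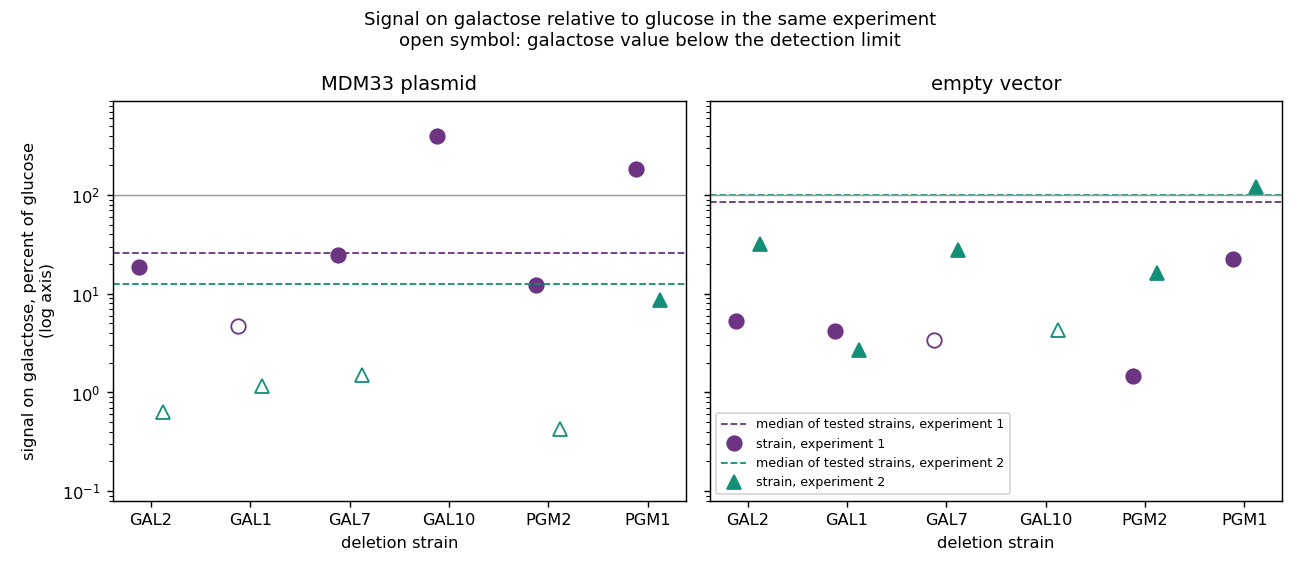
Signal on galactose as a percent of glucose in the same experiment, on a log axis, for the 6 strains with the MDM33 plasmid (left) and the empty vector (right). Circles are experiment 1, triangles experiment 2, dashed lines the medians of tested strains, and open symbols mark galactose values below the limit. A strain whose glucose value was at or below the mean limit of 854 units has no symbol. With the empty vector Δgal1 lies at 4.21% and 2.67% and Δpgm2 at 1.46% and 16.3%, below medians of 85.4% and 99.5%, while Δpgm1 lies at 22.7% and 121%.

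The fit over all tested strains put error on these changes. It used limma on log2(value + 500 units) with the 4 groups together and Benjamini-Hochberg adjustment over 4074 strains. The spread of a strain had 4 residual degrees of freedom. To these limma added 3.58 from the spread of all strains, and p-values and intervals rest on both. The comparison of galactose with glucose under the empty vector asks how the strains fared on galactose without excess Mdm33. Δgal1 differed by -4.25 (SE 0.79, 95% interval -6.09 to -2.41, adjusted p = 0.745) and ranked 12 from the lowest of 4074, with the second smallest p of all. A fit of only the empty vector groups gave it an SE of 0.59 and an adjusted p = 0.416. Δpgm2 differed by -4.19 (SE 1.13, interval -6.81 to -1.56) and ranked 13. Δgal2 differed by -2.87 (SE 1.22) and ranked 62, and Δgal7 by -2.38 (SE 1.36) and ranked 117. The value of Δgal7 was -0.82 without experiment 1 of the empty vector on galactose and -3.94 without experiment 2.

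Δpgm1 differed by -0.89 (SE 1.37) and ranked 732, and Δgal10 by -0.79 (SE 1.01) and ranked 826. The median of all strains was -0.09. None of the 6 strains passed the adjusted threshold of 0.05, and neither did any other of the 4074 strains (0%). At an unadjusted p under 0.05, 3 of the 6 (Δgal2, Δgal1 and Δpgm2) were lower on galactose, against 1.37% of tested strains. The same 3 had all galactose values below all glucose values, against 17.1% of tested strains, and 2 of them (Δgal1 and Δpgm2) were under 25% of glucose in both experiments, against 2.55%. The median difference over the 6 strains was -2.62. The sign for Δgal10 rested on its glucose value in experiment 2, since in experiment 1 galactose and glucose were both below the limit. With a replicate left out, the difference reached 0.051 for Δgal10 and 0.13 for Δpgm1. All 6 differences stayed below 0 when the channels were scaled by the 75th percentile of all probes or of the labelled tag. These scalings put the median of all strains at 0.47 and -0.04. Δgal1 was then at -2.35 (SE 1.83, adjusted p = 1.00) and -3.84, and the uptags alone gave it -2.22 (SE 0.61, adjusted p = 1.00).

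With the MDM33 plasmid the same comparison had a median of -1.98 over all tested strains, so most of the pool was lower on galactose in scaled units. Δpgm2 differed by -4.55 (SE 1.13, adjusted p = 0.0620), Δgal1 by -4.23 (SE 0.79, adjusted p = 0.0603) and Δgal2 by -4.15 (SE 1.22, adjusted p = 0.0684). Δgal7 differed by -3.36 (SE 1.36) and Δpgm1 by -1.18 (SE 1.37). Δgal10 differed by 0.77, given as a value only, since it entered the tested strains through its signal on galactose with MDM33. None of the 6 strains passed, and no other strain did (0%). A limma fit of only the MDM33 plasmid groups gave no strain an adjusted p under 0.188. Weighting the arrays in limma gave none under 0.245. At an unadjusted p under 0.05, 4 of the 6 (Δgal2, Δgal1, Δgal7 and Δpgm2) were lower, against 36.0% of tested strains, and the same 4 did not overlap, against 58.7%. Δgal1, Δgal2 and Δpgm2 ranked 152, 172 and 81 from the lowest. Δgal1 was below the limit in both galactose experiments and the other two in experiment 2, so that a further fall could not be measured. The scalings by all probes and by the labelled tag put the median of all strains at -0.13 and 0.41 and turned the sign for Δpgm1 alone of the 6, to 0.96 and 1.71. Without experiment 1 of the MDM33 plasmid on galactose, 5 of the 6 strains passed (all but Δgal10), all lower, against 39.3% of tested strains. Without experiment 2 only Δgal1 passed, also lower, against 15.5%. In both cases 1 sample stands for the group and is assumed to vary like the other groups. The full group varied more, with experiments a median of 1.80 log2 units apart, against 0.64 to 0.77 in the others. These calls therefore rest on the spread of the less variable groups.

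**Figure D4:**
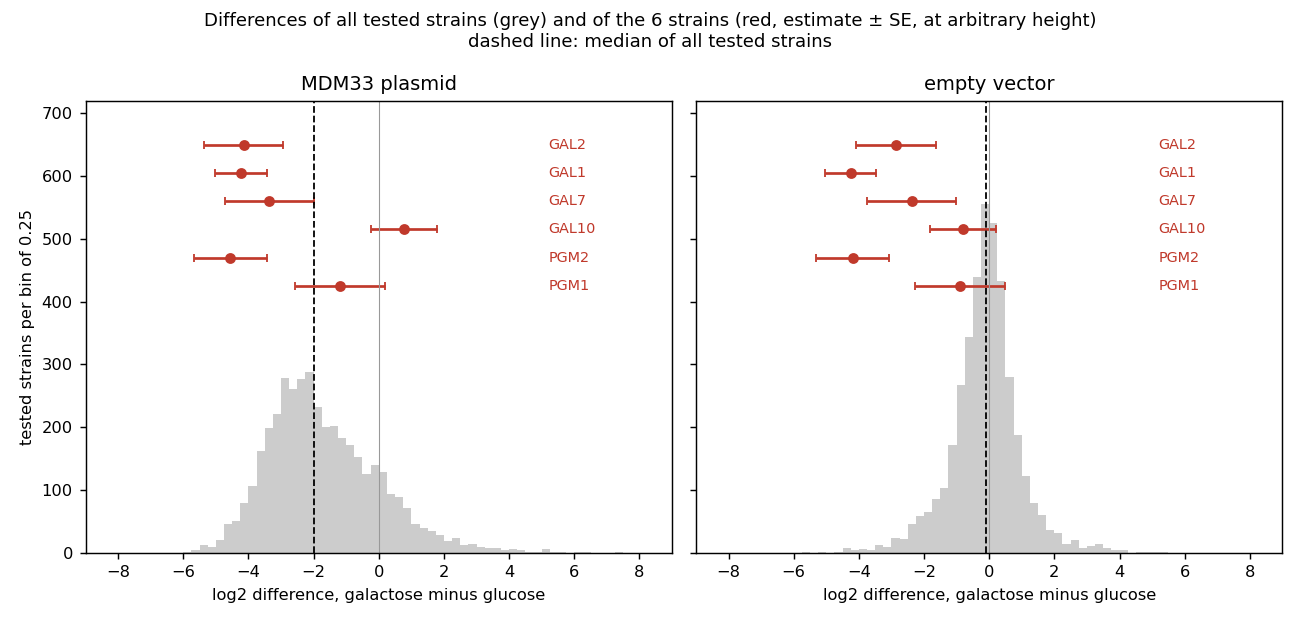
Log2 difference of galactose minus glucose with the MDM33 plasmid (left) and the empty vector (right). Grey bars count the 4074 tested strains in bins of 0.25, red points are the 6 strains with their SE, drawn at arbitrary heights, and dashed lines are the medians of all strains, -1.98 and -0.09. With the empty vector Δgal1 and Δpgm2 sit in the far left tail at -4.25 and -4.19, while with the MDM33 plasmid most strains lie below 0.

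The authors' screen compared galactose with glucose under the MDM33 plasmid. The comparison of the MDM33 plasmid with the empty vector on galactose instead holds sugar and time on the plate fixed. Here 422 strains passed the test (10.4%), 10 higher and 412 lower (10.1%), with a median of -1.65 over all strains. Scaling by all probes called 4 higher and 0 lower with a median of -0.42, and scaling by the labelled tag 14 higher and 0 lower with a median of 0.68, so of these 3 scalings only that of the authors called strains lower. With the experiment as a block, 6 strains were higher and 194 lower. None of the 6 strains passed, and none had an unadjusted p under 0.05, as 35.6% of tested strains did. Δgal2 differed by -1.83 (SE 1.22, adjusted p = 0.325) and Δpgm2 by -1.79 (SE 1.13, adjusted p = 0.299), close to that median. Δgal1 differed by -0.56 (SE 0.79), Δpgm1 by -0.14 (SE 1.37) and Δgal7 by 0.14 (SE 1.36). Δgal10 differed by 1.98, given as a value only, since it entered the tested strains through its signal in this MDM33 group and both of its empty vector values were below the limit. Scaling by the labelled tag turned the sign for Δgal2 (0.19), Δpgm2 (0.076), Δgal1 (1.26) and Δpgm1 (2.56), and scaling by all probes for Δpgm1 (1.37).

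The median over the other 5 strains was -0.56. Of these 5, the groups did not overlap for Δgal1 alone, which was lower with MDM33 (51.1% of tested strains were) and below the limit there in both experiments. On galactose under the empty vector the 2 tags of Δgal1 stood at only 1.68 to 2.63 times their limits, which bounds the fall that could be measured there. Without experiment 1 of the MDM33 plasmid on galactose, Δgal2 alone of the 6 passed, with a difference of -3.55 from a single value below the limit, where 38.3% of tested strains were called lower.

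On glucose, where the promoter is repressed, differences of the MDM33 plasmid from the empty vector lay between -1.42 for Δpgm2 and 1.12 for Δgal7. None of the 6 strains or of the 4074 passed (0%), and 42 strains (1.03%) had an unadjusted p under 0.05, none of the 6 among them. Δgal7 and Δpgm1 were higher with the MDM33 plasmid without overlap, as were 11.2% of tested strains.

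The interaction, the galactose effect with the MDM33 plasmid minus that with the empty vector, was -1.28 for Δgal2 (95% interval -5.30 to 2.74), -0.98 for Δgal7, -0.36 for Δpgm2 and -0.30 for Δpgm1. It was 0.02 for Δgal1 (interval -2.59 to 2.63) and, as a value only, 1.56 for Δgal10. None of the 6 strains or of all tested strains passed (0%), and 757 strains (18.6%) but none of the 6 had an unadjusted p under 0.05. The intervals are wide enough to hold changes of several log2 units either way.

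The 6 profiles over the 8 values were compared with each other and with the other tested strains as a description, since all strains share the same 8 hybridized pools. Δgal2 and Δpgm2 were alike at r = 0.96, and Δgal1 and Δpgm2 at r = 0.92. Δgal1 and Δgal7 had r = 0.79, and Δpgm2 and Δpgm1 r = 0.61. By likeness to Δpgm2 among 4073 strains, Δgal2 ranked 7, Δgal1 40 and Δpgm1 1632. By likeness to Δgal1, Δgal7 ranked 113. Δgal10 was close to none of them, with r between -0.18 and 0.38. Outside the pathway the closest profiles were RPA14, YOX1 and MAM33 for Δgal2 (r between 0.98 and 0.99) and MFM1, DMA2 and GTB1 for Δpgm2 (0.98 to 0.99). They were COQ1, PET54 and AIM26 for Δgal1 (0.96 to 0.97) and SOD2, RPL20A and VPS5 for Δgal7 (0.95 to 0.96). They were YEL067C, YKE4 and HMS1 for Δpgm1 (0.98 to 0.99) and RGI2, RLM1 and DNF1 for Δgal10 (0.85 to 0.87).

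Δgal3, which lacks the galactose sensor, had 402345 and 74799 units with the MDM33 plasmid on galactose, against 1887 and 11038 units with the empty vector. Δgal4, which lacks the activator, had 14414 and 207340 units with MDM33, against 4421 and 2832 units with the empty vector. The differences were 5.05 (SE 1.43, adjusted p = 0.0591) and 3.78 (SE 1.22, adjusted p = 0.0770), and MDM33 and empty vector did not overlap for either. Under the empty vector these 2 strains were also lower on galactose than on glucose in value, by -3.24 and -3.88, between the differences of Δgal2 and Δpgm2 and without passing the adjusted threshold. The difference between these strains and the enzyme strains was not itself tested.

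Δgal80, which lacks the inhibitor of Gal4, went the other way. It had 2289.9 and 1279.9 units with MDM33 on galactose, both below the limit, against 217572 and 44425 units with the empty vector. With MDM33 it fell by 5.47 on the log2 scale (SE 1.07, adjusted p = 0.0415). It was the only 1 of the 3 regulators to pass, where 10.1% of tested strains were called lower. On glucose Δgal80 was also lower with the MDM33 plasmid, at 4681 and 8553 units against 13900 and 51713 units with the empty vector. The difference there was -2.00 (SE 1.07) and the interaction -3.47 (SE 1.51, adjusted p = 0.272), and neither passed.

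Glucose-1-phosphate, the product of Gal7, is also the entry to glycogen and trehalose stores. Of 12 tested strains for these, 2 passed on galactose between the plasmids, both lower with MDM33 as were 10.1% of all tested strains, and the median was -2.88, against -1.65 in all. They were Δglg2, without a primer of glycogen synthesis (-5.15, adjusted p = 0.0477), and Δgph1, without glycogen phosphorylase (-4.10, adjusted p = 0.0475). Of 7 tested strains for hexose phosphorylation and upper glycolysis, 1 passed, Δpfk26, without a 6-phosphofructo-2-kinase (-4.33, adjusted p = 0.0436). At these list sizes both counts are near the share of all strains. Of 8 tested hexose transporter strains none passed, and 5 were lower at an unadjusted p under 0.05 (34.1% of tested strains were).

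No strain of these lists passed in the other comparisons. With the empty vector, galactose and glucose differed by a median of 0.02 in the transporter strains, -0.30 in the upper glycolysis strains and 0.34 in the glycogen and trehalose strains, against -2.62 in the 6 strains and -0.09 in all. No call between the plasmids on galactose held when limma weighted the arrays, used the uptags alone or was fitted to only the groups compared, each of which called 0 of all strains, and both scalings called none lower. Leaving out either experiment of the empty vector on galactose, or of either plasmid on glucose, also called 0.

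Strains for 3 neighbours of the GAL cluster on chromosome II were looked at for their position alone. KAP104 and FUR4 strains were below the limit in every group. The POA1 strain had 26034 and 5129 units with the MDM33 plasmid on galactose, against 56153 and 57269 units on glucose. Its empty vector values were 649.9 and 51537 units on galactose, against 52835 and 53191 units on glucose, so that the low value stood in experiment 1 alone. Its fitted difference there was -2.79 (SE 1.68, adjusted p = 1.00), and a part of the position in the values of Δgal7, Δgal10 and Δgal1 was not tested.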

How the data were processed

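The deposited values were linear intensities of an Agilent barcode array, which the authors read with ArrayVision (v8.0, revision 4.0), corrected for background and scaled to a common total in each of 24 dye channels. Another 24 columns, unscaled, were left out. Of 14767 annotated probes, 14741 were in the value table. Strain names were matched to RefSeq R64 genes for 5086 of 5526 strains.

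Groups came from the sample labels. Per tag, the original or mutated probe with the highest mean was used, dyes were averaged as linear values, and then the tags. Strains with a mean over 8 values above the mean limit of 854 units were tested with lmFit, contrasts.fit and eBayes of limma 3.58.1 (R 4.3.3) on log2(value + 500), in 1 fit over all 4 groups. The spread was pooled because 2 experiments per group give few degrees of freedom, and their number limits the precision. Percents of a reference at or below the mean limit were left out. The fit was tested on simulated data. The other steps ran in Python (3.11.15), with the packages scipy (1.17.1), pandas (2.3.3), matplotlib (3.10.9) and numpy (2.4.6).

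The 6 strains and the 5 lists were chosen with earlier results of these data known. The named strains were the 6, for each of them the 3 tested strains with the most similar profile, list strains past the test (up to 4 per list and comparison) and GAL3, GAL4 and GAL80. POA1, KAP104 and FUR4, also named, form a list of chromosome II neighbours. The alternatives were leaving out each replicate, a replicate block, array weights, another offset, scaling, filter, tag, probe or dye, and other percentiles for the limit. The second GAL1 probes and fits of only the groups compared were added after seeing the data.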

Additional observations from a re-analysis of the deposited data

Results flagged for a closer look

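Probes that gave no value in the comparisons carried signal above the detection limit for 3 of the strains. The second downtag probe of GAL1 was above it in 9 of 12 channels, with up to 60835 units. Each of the 2 mutated downtag probes of PGM2 was above it in 9 of 12 channels, with up to 129976 and 121399 units. The mutated downtag probe of GAL7 was above it in 2 of 12 channels, at most at 1.86 times the limit, and the mismatch control of the GAL7 uptag in 1 of 12, at 1.40 times the limit.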

How the results depend on the processing

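With the empty vector, none of the 6 strains passed between galactose and glucose under any alternative, and no strain changed direction except Δgal10 and Δpgm1 with a replicate left out. With the MDM33 plasmid, Δgal1 and Δpgm2 passed with an offset of 2000 units or with the downtags alone (2 strains each), and Δgal1 alone without a filter (1 strain). Leaving out a replicate gave 0 to 5 strains there and 0 to 1 (Δgal2) between the plasmids on galactose. On galactose with the MDM33 plasmid, 2 strains were detected in both experiments with the limit at the 95th percentile (49.0% of array names). At a stricter limit 0 were (32.4%).

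Settings named by Cy5 or Cy3 took that dye alone in experiment 2 and kept the single dye of experiment 1. The count over all strains between the plasmids on galactose was 10 higher and 412 lower. It was 2 and 80 with an offset of 100, 4 and 0 with all probes setting a scaling by their 75th percentile, 14 and 0 with the labelled tag setting it, 7 and 172 with Cy5 alone, 19 and 689 without a filter, and 258 and 1561 or 90 and 736 without experiment 1 or 2 of the MDM33 plasmid on galactose. In the comparison of galactose with glucose under the MDM33 plasmid it was 0 and 0, against 19 and 314 with an offset of 2000, 13 and 505 with the downtags alone, 24 and 635 without a filter, 22 and 0 or 52 and 0 under the scalings, 0 and 11 with original probes only, and 221 and 1601 or 110 and 632 without the same experiments. The causes were not tested. Scaling by the labelled tag moved the median of all strains between the plasmids on galactose to 0.68, and scaling by all probes to -0.42.

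None of the differences that turned direction had passed the test in the settings of the report. Scaling to all probes gave Δpgm1 1.37 between the plasmids on galactose, 0.96 between the sugars with MDM33 and 1.29 in the interaction, and gave Δgal1 -0.94 in the interaction. Scaling to the labelled tag gave, between the plasmids on galactose, 1.26 for Δgal1, 0.19 for Δgal2, 2.56 for Δpgm1 and 0.076 for Δpgm2, gave Δpgm1 1.71 between the sugars with MDM33, and gave interactions of 0.69 for Δgal2, 0.96 for Δgal7, 2.34 for Δpgm1 and 1.45 for Δpgm2. The interaction of Δgal1, 0.02, became -1.14 with its second probes, -0.27 with the downtags, -0.25 with Cy5, -0.74 with the mean of probes and -0.33 with an offset of 100. The downtags alone gave -0.36 for Δgal10 between the sugars with MDM33, -0.042 for Δgal7 between the plasmids on galactose and -0.0062 for Δpgm1 on glucose. Cy5 alone gave -0.18 for Δgal7 and 0.12 for Δpgm1 between the plasmids on galactose, -0.11 for Δpgm1 on glucose and 0.23 for its interaction. Cy3 alone gave -0.14 for Δgal10 on glucose, and an offset of 2000 gave 0.011 for Δpgm1 between the plasmids on galactose and 0.26 for the interaction of Δpgm2.

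With a replicate left out, the galactose difference with the empty vector ran between -1.64 and 0.051 for Δgal10 and between -1.91 and 0.13 for Δpgm1, and with MDM33 between -0.32 and 1.85 for Δgal10 and between -3.23 and 0.86 for Δpgm1. The difference between the plasmids ran between -1.42 and 1.69 for Δgal7 and between -2.18 and 1.91 for Δpgm1 on galactose, and between -0.42 and 1.26 for Δgal10 and between -1.14 and 0.033 for Δgal2 on glucose. Interactions ran between -0.48 and 0.52 for Δgal1, -3.00 and 0.44 for Δgal2, -2.53 and 0.58 for Δgal7, -2.35 and 1.75 for Δpgm1 and -1.37 and 0.64 for Δpgm2.

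The replicate number marks the experiment, and samples of one experiment also shared a dye scheme, with 1 dye per sample in experiment 1 and both dyes in experiment 2. Same-numbered deviations correlated at 0.06 to 0.32 between groups. With the experiment as a replicate block, 0 of the 6 strains passed in each comparison, and the block called 6 strains higher and 194 lower between the plasmids on galactose.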
